A study of Mus musculus with 19 samples.

Results

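Messenger RNA of 10 genes that take up, release, activate and burn fatty acids was followed in mouse gastrocnemius, a fast calf muscle. The genes were Lpl, Cd36, Fabp3, Angptl4, Pnpla2, Lipe, Acsl1, Hadha, Eci2 and Ucp3, chosen by symbol, and all 10 were present among the 13067 genes of the deposited table. The 19 libraries were made from polyA RNA of snap-frozen muscle and fell into 3 groups. The 7 controls came from mice with no tumour. The 7 C26 vehicle libraries came from male Balb/c mice that had been given C26 cells under the skin of the right flank when 2 months old, and vehicle (ethanol in saline) into the peritoneum from day 4. The 5 C26 rolipram libraries came from mice handled in the same way that were given rolipram at 3 mg/kg in place of vehicle alone. C26 cells come from a mouse adenocarcinoma of the colon, and mice that carry them lose muscle and fat, a state called cachexia. Rolipram inhibits phosphodiesterase 4, an enzyme family that breaks down cyclic AMP. The labels record no injection for the controls, and no age, sex or strain specific to them, so the tumour and the injections cannot be told apart in a comparison with controls. The labels do not say that the libraries came from separate animals, and p-values measure only the spread between these libraries.

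Muscle draws fatty acids from the blood and from its own lipid droplets. Lipoprotein lipase (Lpl) frees them from circulating lipoproteins at the vessel wall, Angptl4 inhibits that enzyme, Cd36 carries fatty acids over the plasma membrane and Fabp3 binds them in the cytosol. The lipases ATGL (Pnpla2) and HSL (Lipe) release them from stored triglyceride, and Acsl1 couples them to coenzyme A. Enzymes of beta-oxidation, Hadha and the isomerase Eci2 among them, serve the pathway that shortens them. Ucp3 is a carrier of the inner mitochondrial membrane of muscle. Many of these genes are known targets of the PPAR nuclear receptors, and cyclic AMP activates lipolysis in adipocytes.

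Promoter sequences from the RefSeq table (GRCm38.p6) are shown for genes that the results turn on. The table held 10 windows of 250 bases before a start site for 8 of the 10 genes, and Lpl and Angptl4 had no entry. Each sequence is the longest stretch of its window without an annotated untranslated exon, 5′ to 3′ on the gene's strand. Pnpla2, Cd36 and Eci2 were higher in both tumour groups, Ucp3 and Fabp3 carry a searched motif, and the Hadha stretch lies between the start sites of Hadha and of Hadhb, its partner subunit, which starts on the opposite strand at position 30155248. Capitals mark a match to one of the motifs searched.
Pnpla2 (chr7:141454938-141455187, + strand): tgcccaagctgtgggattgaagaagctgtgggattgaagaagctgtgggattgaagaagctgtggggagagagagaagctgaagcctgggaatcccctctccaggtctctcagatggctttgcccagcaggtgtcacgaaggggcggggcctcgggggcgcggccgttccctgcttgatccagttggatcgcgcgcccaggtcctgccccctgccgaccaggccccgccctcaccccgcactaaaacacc
Cd36 (chr5:17835897-17836146, - strand): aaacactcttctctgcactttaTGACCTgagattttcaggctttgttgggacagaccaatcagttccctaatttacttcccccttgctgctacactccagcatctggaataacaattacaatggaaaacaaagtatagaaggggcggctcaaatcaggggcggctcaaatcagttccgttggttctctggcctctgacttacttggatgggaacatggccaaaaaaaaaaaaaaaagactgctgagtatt
Eci2 (chr13:34994282-34994394, - strand): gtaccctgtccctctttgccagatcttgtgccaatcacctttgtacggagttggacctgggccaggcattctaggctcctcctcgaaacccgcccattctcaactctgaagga
Ucp3 (chr7:100472741-100472990, + strand): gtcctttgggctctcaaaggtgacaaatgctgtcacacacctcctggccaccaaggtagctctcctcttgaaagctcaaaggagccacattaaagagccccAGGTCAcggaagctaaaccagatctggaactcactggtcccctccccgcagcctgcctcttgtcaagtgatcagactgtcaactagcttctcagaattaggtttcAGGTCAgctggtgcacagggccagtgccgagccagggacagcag
Fabp3 (chr4:130308488-130308594, + strand): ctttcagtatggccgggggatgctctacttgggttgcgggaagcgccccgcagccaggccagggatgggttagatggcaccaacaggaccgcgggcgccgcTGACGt
Hadha (chr5:30155163-30155230, - strand): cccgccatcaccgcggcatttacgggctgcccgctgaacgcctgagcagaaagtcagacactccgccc

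For 6 short motifs, matches were searched on both strands of the windows: the nuclear receptor half-site AGGTCA, the cyclic AMP response element core TGACG, the FOXO core GTAAACA, the glucocorticoid receptor half-site AGAACA, the E-box CACGTG and the TATA box TATAAA. The Ucp3 window held AGGTCA in 2 places, at 149 to 144 and at 44 to 39 bases before the start. The Cd36 window held it once on the other strand, at 228 to 223. This half-site occurs in 14.0% of the 32851 promoter windows of the table. The Fabp3 window held TGACG, which is found in 17.8% of windows. The 2 windows of Lipe, not printed here, held the FOXO core (3.17% of windows) and the E-box (6.02%). AGAACA and TATAAA, in 16.1% and 12.4% of all windows, were not among the letters of any of the 10 windows. These matches describe letters only, and no binding was measured.

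Values are RPKM as the authors deposited them, that is, reads scaled by the length of the gene and by the size of the library, so RPKM can be compared between genes. Differences between groups are given on the scale log2(RPKM + 1) from a limma model of all 11141 genes that passed a filter on low values (1 RPKM or more in 5 or more libraries), which all 10 genes passed. The Benjamini-Hochberg adjustment ran over all of those genes, and a gene was called at an adjusted p below 0.05. Brackets hold 95% intervals. The libraries held an estimated 16.6 to 45.5 M reads. The first principal component of all tested genes held 66.8% of the variance and placed the controls at -50.3 to -42.3, the vehicle libraries at 8.9 to 57.6 and the rolipram libraries at 6.1 to 34.8. Muscle fibre genes were abundant in every library: a list of 9, in which fast fibre genes such as Myh4 stand beside Acta1 and Ckm, which all fibres express, summed to 65005 to 80870 RPKM in controls, 46200 to 70354 in C26 vehicle and 45214 to 70203 in C26 rolipram, and none of the 9 was under 1 RPKM. In such bulk tissue, fewer cells of a type and less RNA per cell cannot be told apart.

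In healthy muscle most of these genes were strongly expressed. Fabp3 led at 343 ± 46.3 RPKM (SD, n = 7), above 99.2% of the genes in the table, and Lpl followed at 151 ± 20. Hadha, Cd36, Acsl1, Pnpla2, Ucp3 and Eci2 came next, at means of 124, 108, 100, 83.2, 77.6 and 40.8 RPKM. Lipe at 6.2 ± 2.7 RPKM and Angptl4 at 1.95 ± 1.35 were far lower. In this order, the ranges of neighbours overlapped except between Fabp3 and Lpl and between Eci2 and Lipe. Under C26 vehicle the order was Pnpla2, Lpl, Fabp3, Cd36, Ucp3, Hadha, Eci2, Acsl1, Lipe and Angptl4, with Pnpla2 at a mean of 366 RPKM, above 99.1% of genes.

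**Figure D1:**
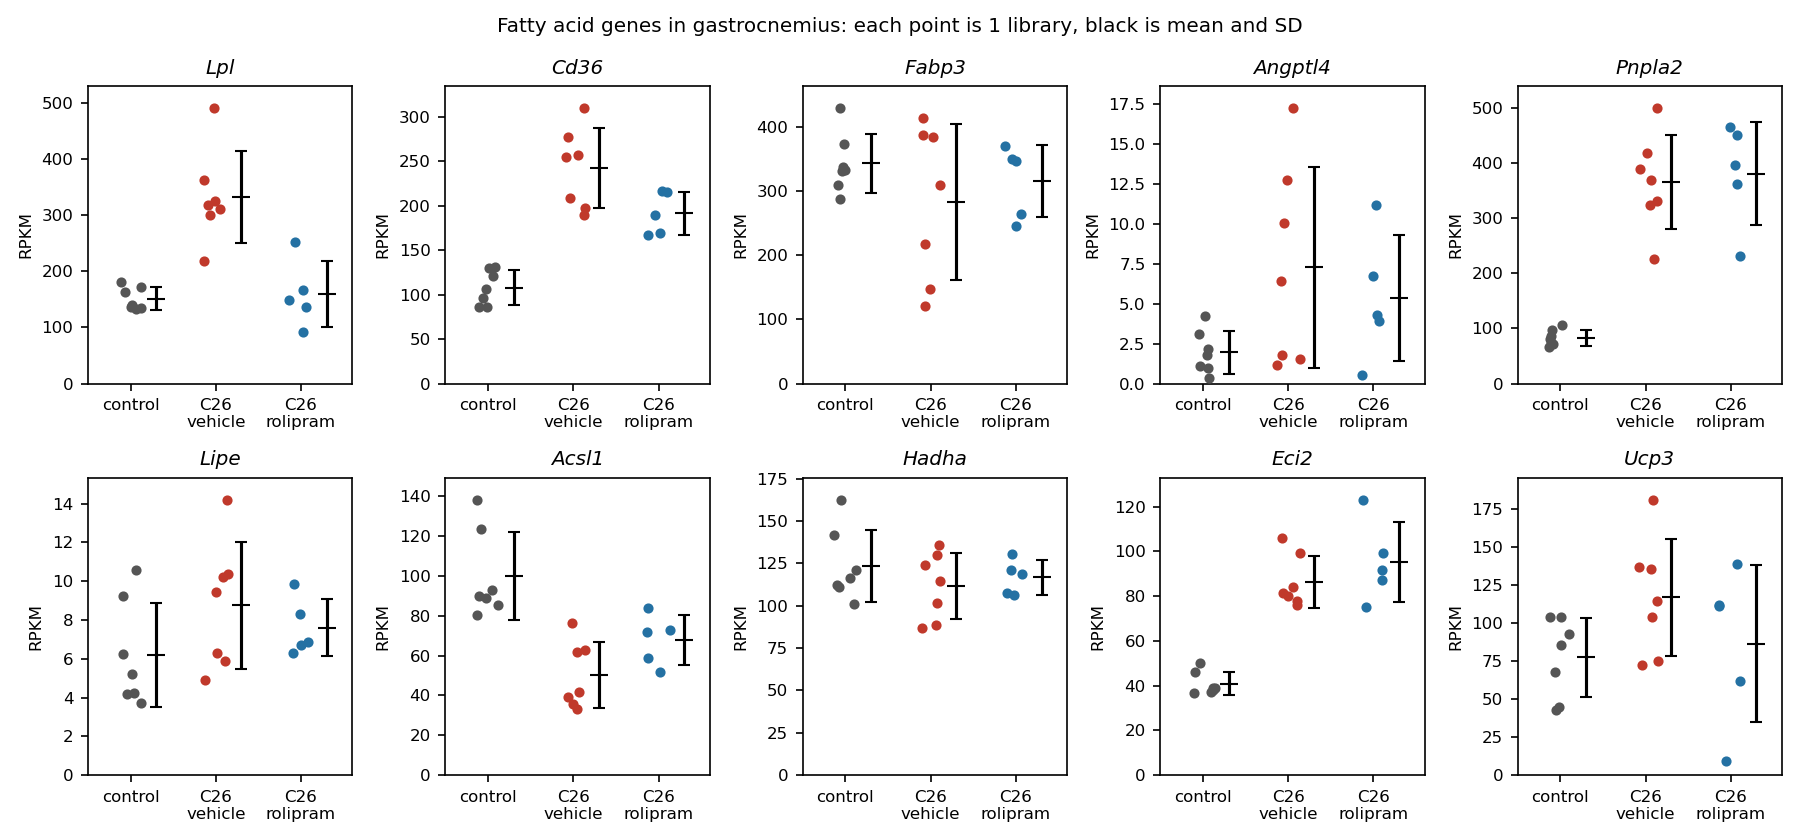
RPKM of each of the 10 genes by group (control n = 7, C26 vehicle n = 7, C26 rolipram n = 5); each point is 1 library, and the black mark and bar give the mean and SD. Pnpla2, Cd36 and Eci2 lay above every control in both tumour groups, and Lpl did so in the C26 vehicle group.

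The first comparison asks what differed in the muscle of C26 mice given vehicle from that of controls. Of the 10 genes, 5 were higher (Lpl, Cd36, Angptl4, Pnpla2 and Eci2), 1 was lower (Acsl1) and 4 did not pass the test. Across all genes tested, 43.3% were called higher and 23.8% lower. For 5 of the 10 the libraries of both groups did not overlap, against 39.1% of all genes. The median change of the 10 was 0.83, and that of all genes 0.15. Scaling moved the balance of calls: 64.6% of all calls were higher as deposited, 54.0% after median-of-ratios scaling and 51.6% after quantile normalisation, and the 10 genes then counted 4 higher and 3 lower, and 5 higher and 3 lower.

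The second comparison asks what rolipram changed in tumour-bearing mice. Between the C26 rolipram and C26 vehicle groups, 0 of the 10 genes were called higher by limma and 1, Lpl, was called lower; at an unadjusted p below 0.05 these were 1 and 2. The shares of all genes were 9.78% higher and 7.32% lower. The libraries overlapped for all 10 genes, whereas 4.08% of all genes had groups that did not overlap. In a further comparison, of C26 rolipram with controls, 3 genes were higher (Cd36, Pnpla2 and Eci2), 1 was lower (Acsl1) and 6 did not pass, against 38.5% of all genes higher and 16.4% lower. The libraries of 3 genes did not overlap there, against 35.4% of all genes. Of all calls in this comparison 70.1% were higher as deposited, 54.3% after median-of-ratios scaling and 52.6% after quantile normalisation. Both comparisons with controls share the control libraries, and both comparisons with C26 vehicle share the vehicle libraries, so their values are given side by side and not as independent results.

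**Figure D2:**
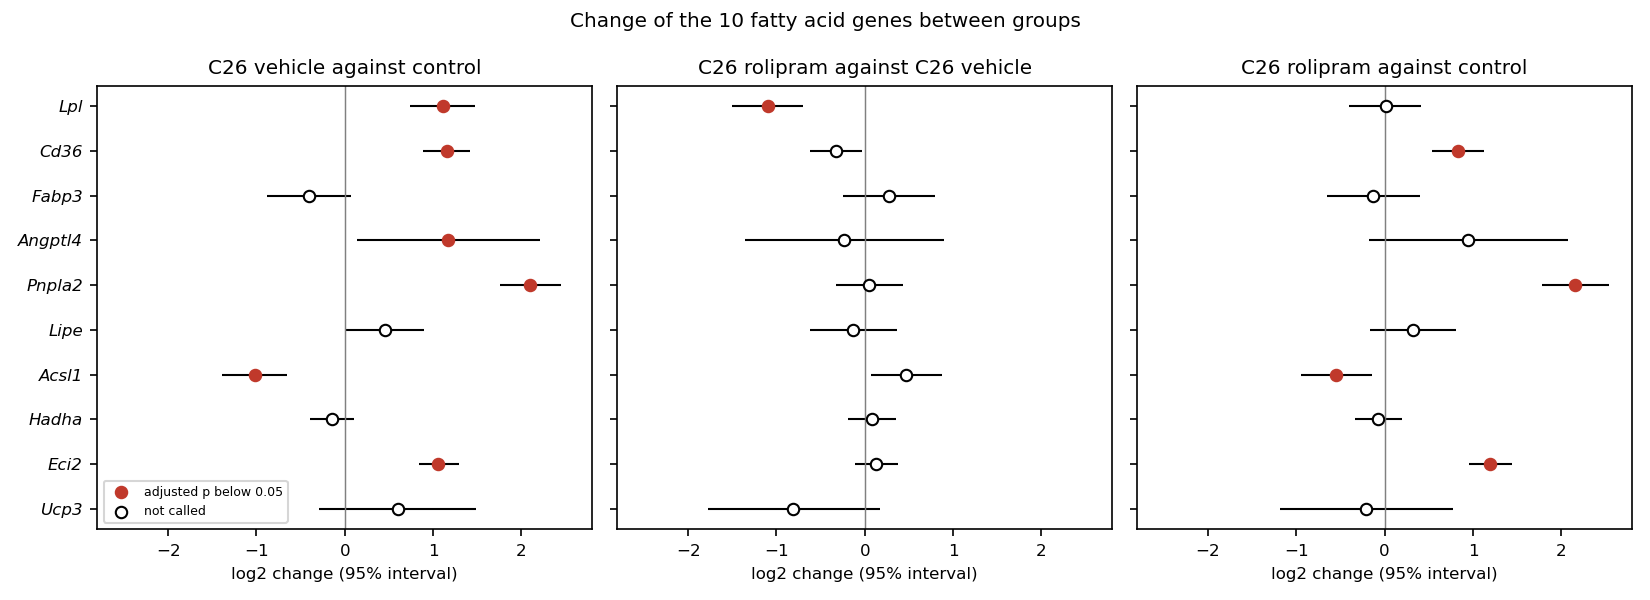
Log2 change of each gene in the 3 comparisons with its 95% interval; filled red points passed an adjusted p of 0.05 and open points did not. Lpl is the 1 gene called between the C26 rolipram and C26 vehicle groups, at -1.10.

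At the vessel wall, Lpl was the gene whose level followed the treatment. It lay at 133 to 181 RPKM in controls, with a median of 140, and at 219 to 490 in C26 vehicle libraries, with a median of 317. The 5 C26 rolipram libraries held 136, 91.6, 149, 166 and 251 RPKM. Every vehicle library was above every control, and 4 of the 5 rolipram libraries lay within or below the control range. The fifth was above all controls and above the lowest vehicle library. Lpl rose by 1.11 on the log2 scale under C26 vehicle ([0.74, 1.47], SE 0.18, adjusted p = 1.51e-05), a 2.15-fold difference. With rolipram it was lower than with vehicle by -1.10 ([-1.50, -0.70], SE 0.19, adjusted p = 0.00129), and it kept that call under every alternative run, at -1.28 to -0.92. Against controls the difference was 0.01, with an interval from -0.40 to 0.41 (adjusted p = 0.982).

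A partner of Lpl at the endothelium did not show this pattern. Gpihbp1, which anchors Lpl to capillaries, was named for that role after its values were seen: its mean was 16.3 RPKM in the control group, 29.8 in the vehicle group and 26.9 in the rolipram group. It was higher in both tumour groups than in controls (0.82, adjusted p = 4.38e-06, and 0.69, adjusted p = 0.000135), and rolipram against vehicle gave -0.13 (adjusted p = 0.522). The ratio of Lpl to Gpihbp1 RPKM was 9.34 ± 1.03 in controls (n = 7), 11.7 ± 4.32 in C26 vehicle (n = 7) and 6.03 ± 2.32 in C26 rolipram (n = 5). Endothelial markers, 10 genes with Gpihbp1 among them, summed to 114 to 173 RPKM in controls (median 147), 147 to 229 in C26 vehicle (195) and 155 to 194 in C26 rolipram (181), and their part in the result was not tested. Of these 10 markers 5 were higher and 1 lower under C26 vehicle, and 0 were called between the tumour groups by limma, with 0 also at an unadjusted p below 0.05. All genes gave 43.3% higher and 23.8% lower under vehicle, and 9.78% and 7.32% between the tumour groups.

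Angptl4, the inhibitor of Lpl, was scarce and uneven. Controls held 0.362 to 4.22 RPKM (median 1.78) and C26 vehicle libraries 1.16 to 17.2 (median 6.41). The rolipram libraries held 4.28, 3.94, 6.74, 11.2 and 0.538 RPKM. All groups overlapped: vehicle libraries 3, 4 and 5 sat at 1.16, 1.78 and 1.51, inside the control range, and the other 4 at 6.41 or more. The gene was called higher under C26 vehicle (1.17, [0.14, 2.21], SE 0.50, adjusted p = 0.042). That call was lost with a pseudocount of 0.1 (adjusted p = 0.058), after median-of-ratios scaling (0.0584) and without any 1 of 9 libraries (controls 1 to 5 and vehicle 1, 2, 6 and 7, 0.0504 to 0.0988). Rolipram against vehicle gave -0.23 ([-1.36, 0.90], adjusted p = 0.801), and rolipram against controls 0.94 ([-0.18, 2.07], adjusted p = 0.146), which passed without rolipram library 5 (1.38, adjusted p = 0.0357).

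Cd36, the fatty acid translocase of the membrane, was raised in both tumour groups. Controls held 85.7 to 131 RPKM (median 106) and C26 vehicle libraries 189 to 310 (median 255). The rolipram libraries held 216, 190, 167, 216 and 169. No library of either tumour group fell into the control range. The change was 1.16 under vehicle ([0.89, 1.42], SE 0.13, adjusted p = 1.73e-07) and 0.83 with rolipram against controls ([0.54, 1.13], adjusted p = 5.22e-05). Between the tumour groups Cd36 differed by -0.32 ([-0.62, -0.03], adjusted p = 0.115), a difference that passed after quantile normalisation alone (-0.44, adjusted p = 0.0442).

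Fabp3, the cytosolic carrier, was split within the vehicle group. Controls held 287 to 430 RPKM (median 333), and C26 vehicle libraries ranged from 120 to 413 (median 309). The rolipram values were 347, 371, 245, 350 and 264 RPKM. Vehicle libraries 3, 4 and 5, at 218, 120 and 148, lay below every control, while the other 4 lay at 309 to 413. The change was -0.41 under vehicle ([-0.88, 0.07], adjusted p = 0.126) and passed after median-of-ratios scaling (-0.55, adjusted p = 0.0408), after quantile normalisation (-0.63, adjusted p = 0.0312) and without vehicle library 7 (-0.52, adjusted p = 0.0486). Between the tumour groups the difference was 0.28 ([-0.25, 0.80], adjusted p = 0.474), and rolipram against controls -0.13 ([-0.65, 0.40], adjusted p = 0.685). Of its exonic sequence 19.6% lies under genes on the opposite strand, Gm10570 and Zcchc17, and a processed copy, Fabp3-ps1, exists. The strand setting of the counting is not given in the sources used here, so reads of such overlaps cannot be assigned with certainty.

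Among 10 other genes of uptake, 3 were higher and 1 lower under C26 vehicle, and 6 did not pass. For this list and those below, 43.3% of all genes were higher and 23.8% lower under vehicle. These shares were 9.78% and 7.32% for rolipram against vehicle, and 38.5% and 16.4% for rolipram against controls. Vldlr, a receptor that binds triglyceride-rich lipoproteins, rose by 1.62 (from 32.4 to 103 RPKM, adjusted p = 5.93e-10), and Scarb1, the HDL receptor, rose by 1.09 (from 9.33 to 21 RPKM, adjusted p = 8.85e-08). Both were also higher with rolipram than in controls, by 1.27 and 1.26. Got2, mitochondrial aspartate aminotransferase, also described as a fatty acid binding protein of the plasma membrane, moved in the other direction. It fell by 0.60 under vehicle (adjusted p = 0.000754) and was 0.78 higher with rolipram than with vehicle (adjusted p = 0.00231), at means of 155, 102 and 181 RPKM in control, vehicle and rolipram muscle. It was the 1 gene of this list called between the tumour groups. Slc27a1, a fatty acid transport protein named after its values were seen, stood at 43.1, 38.9 and 45.5 RPKM and passed in no comparison (adjusted p = 0.711, 0.489 and 0.595).

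Pnpla2, the lipase that makes the first cut in stored triglyceride, changed more than any other of the 10 genes relative to controls. Controls held 65.5 to 106 RPKM (median 81.5) and C26 vehicle libraries 227 to 500 (median 370). The rolipram libraries held 451, 465, 231, 361 and 396 RPKM. The lowest tumour library, at 227, was above the highest control. The rise was 2.10 under vehicle ([1.76, 2.45], SE 0.17, adjusted p = 1.79e-09), or 4.3-fold, and 2.16 with rolipram against controls ([1.78, 2.54], adjusted p = 1.11e-08). With rolipram the level differed from vehicle by 0.05, with an interval from -0.33 to 0.43 (adjusted p = 0.869).

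Lipe, the next lipase of that chain, was low and less clear. Its range was 3.7 to 10.6 RPKM in controls (median 5.21) and 4.92 to 14.2 in C26 vehicle (median 9.46). With rolipram the values were 6.84, 6.69, 8.3, 9.88 and 6.3. Controls 4, 5, 6 and 7, at 5.21, 6.25, 9.23 and 10.6, lay inside the vehicle range. The change of 0.45 under vehicle did not pass ([-0.00, 0.90], adjusted p = 0.0731), but it passed when control 6 or 7 or vehicle library 3 or 5 was left out (0.52 to 0.58, adjusted p = 0.0189 to 0.0462). Rolipram against vehicle gave -0.13 ([-0.62, 0.36], adjusted p = 0.738), and rolipram against controls 0.32 ([-0.17, 0.81], adjusted p = 0.265). The exons of Lipe lie under the opposite-strand gene 4732471J01Rik over 15.6% of their length.

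The proteins that govern Pnpla2 on the droplet differed from one another. G0s2, a protein that inhibits ATGL, fell by 1.95 under C26 vehicle (adjusted p = 5.63e-07), from 21.3 ± 6.02 (n = 7) to 4.93 ± 2.15 RPKM (n = 7), and stood at 3.82 ± 1.44 with rolipram (n = 5). Neither tumour group overlapped the controls. The ratio of Pnpla2 to G0s2 RPKM was 2.7 to 6.33 in controls, 27.1 to 218 in C26 vehicle and 40.5 to 238 in C26 rolipram. Abhd5, the coactivator of ATGL, named after its values were seen, stood at 12.8, 12.2 and 11.6 RPKM, and its change under vehicle was -0.06 as deposited ([-0.20, 0.07], adjusted p = 0.407), but -0.19 and -0.31, both called, after median-of-ratios scaling and quantile normalisation (adjusted p = 0.00883 and 6.23e-05). Among 16 droplet genes, 15 of which were in the table and tested, 5 were higher and 3 lower under vehicle. Across all genes these shares were 43.3% and 23.8%. Plin4, a coat protein of lipid droplets, rose by 2.14 (from 55.1 to 231 RPKM, adjusted p = 1.10e-08), and Plin3, another coat protein, by 0.86 (adjusted p = 8.90e-06). Between the tumour groups 1 droplet gene was higher and 1 lower: Plin4 was -0.69 lower with rolipram (144 against 231 RPKM, adjusted p = 0.0305), with no overlap of libraries, and Cidea, a droplet fusion protein, was 0.72 higher (2.33 against 1.04 RPKM, adjusted p = 0.0119). The call of Plin4 was lost without vehicle library 3, 4, 5 or 6 or rolipram library 1, 2 or 4 (-0.68 to -0.59, adjusted p = 0.0502 to 0.0957). Against controls 6 were higher and 2 lower with rolipram, Dgat1, which makes triglyceride, among the former (0.80, adjusted p = 2.75e-05).

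Adipocytes between the fibres also express Lpl, Cd36, Pnpla2, Lipe and Angptl4. The 10 adipocyte markers summed to 601 to 1246 RPKM in controls (median 686), 190 to 1422 in C26 vehicle (630) and 270 to 650 in C26 rolipram (520); Lep and Adrb3 were under 1 RPKM in every group mean and Plin1 in that of rolipram. Car3, which muscle fibres also express, made up much of this sum. Without it the ranges were 254 to 597, 146 to 1092 and 198 to 433. Fabp4 made up most of what remained, at 127 RPKM in vehicle library 3 and 741 in vehicle library 7. Adipoq alone ran from 3.57 to 21.9 RPKM in controls, 1.05 to 38.8 in C26 vehicle and 1.59 to 12.2 in C26 rolipram. Of 8 markers tested, 0 were higher (0 also at an unadjusted p below 0.05, limma) and 2 lower under vehicle, Car3 and Plin1, the latter only narrowly (adjusted p = 0.0432, and not without any 1 of 9 libraries, 0.0572 to 0.11). In that comparison 43.3% of all genes were higher and 23.8% lower. Vehicle libraries 3, 4 and 5 had the lowest Angptl4, Fabp3, Acsl1, Cd36, Lipe and Hadha of their group. They also had its lowest sums without Car3, at 146, 186 and 202 RPKM. Their Adipoq was also its lowest, at 1.05, 2.74 and 3.1 RPKM. Vehicle library 7, with the most Angptl4 and Lipe, had the highest sum without Car3, at 1092, and the highest Adipoq, at 38.8. That same library had the lowest Pnpla2 of its group, 227 RPKM, and library 3 the highest Lpl, 490. The part of adipocytes in the results was not tested for any of the 10 genes. Macrophage markers, 8 genes, summed to 27.5 to 122 RPKM in controls, 74.8 to 210 in C26 vehicle and 51.2 to 149 in C26 rolipram, with Adgre1 under 1 RPKM. Of 7 tested, 6 were higher under vehicle, where 43.3% of all genes were. Macrophages express Lpl and Cd36 as well, and their part was not tested.

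**Figure D3:**
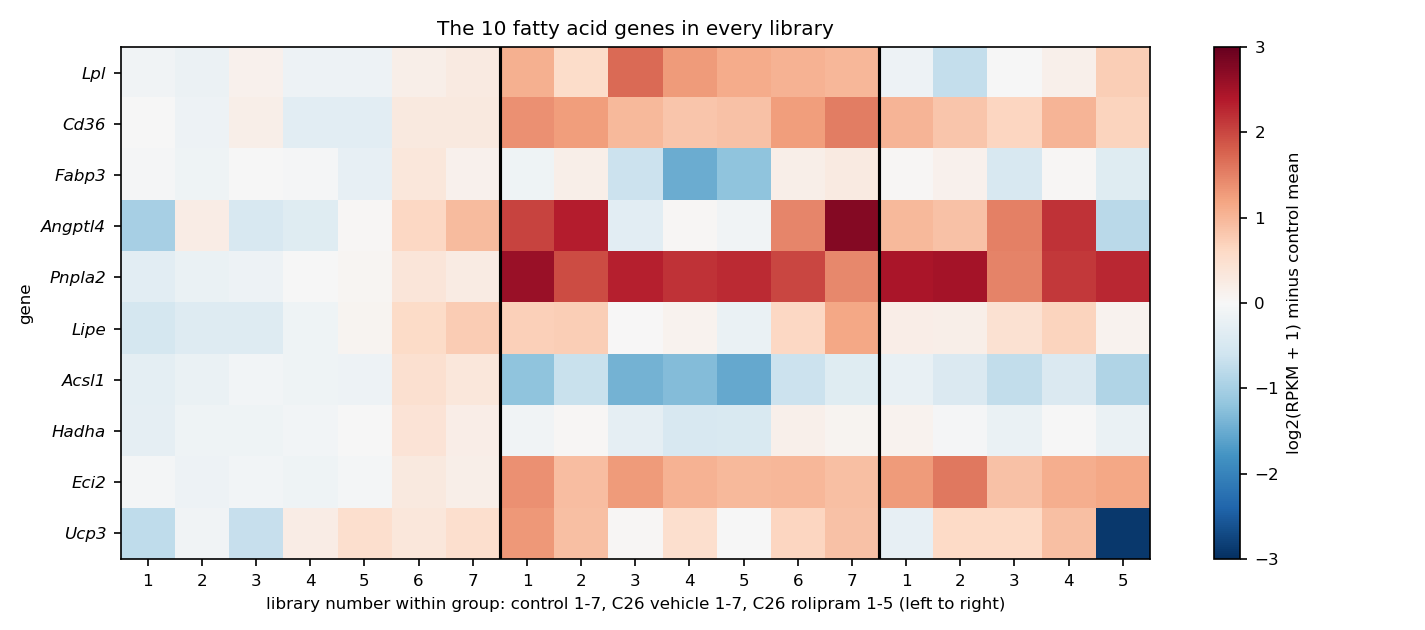
Log2(RPKM + 1) of each gene in each library minus the control mean of that gene, with libraries numbered within their group from left to right. Pnpla2 and Eci2 are raised in all 12 tumour libraries. C26 vehicle libraries 3, 4 and 5 are the lowest of their group for Fabp3, Angptl4, Acsl1, Cd36, Lipe and Hadha. For Angptl4 and Lipe they lie within the control range, and for Cd36 above it. Rolipram library 5 is lowest for Ucp3.

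Acsl1, the main acyl-CoA synthetase of muscle, was the 1 gene of the 10 that fell with the values as deposited. Controls held 80.3 to 138 RPKM (median 90.1), and C26 vehicle libraries 33.3 to 76.4 (median 41.8). The rolipram libraries held 83.9, 71.9, 58.7, 72.8 and 51.7. All vehicle libraries lay below all controls, and of the 5 rolipram libraries 4 lay inside the vehicle range and the highest inside the control range. The fall was by 1.02 under vehicle ([-1.39, -0.65], SE 0.18, adjusted p = 4.25e-05), a ratio of 0.493. Rolipram against controls gave -0.55 ([-0.95, -0.14], adjusted p = 0.022), a call lost without rolipram library 3 (-0.50, adjusted p = 0.0504) or 5 (-0.46, adjusted p = 0.0724). The difference between rolipram and vehicle was 0.47 ([0.07, 0.88], adjusted p = 0.0986), which passed without vehicle library 7 (0.58, adjusted p = 0.0272). Acsl1 made up 82.9 ± 3.18% of the summed RPKM of the 5 Acsl genes in controls (n = 7), 66.8 ± 10.6% in C26 vehicle (n = 7) and 67.4 ± 8.71% in C26 rolipram (n = 5). The 8 genes of the slow fibre list, which also holds Myh2, the myosin of fast oxidative fibres and at a mean of 523 RPKM in controls the largest part, summed to 972 to 1690 RPKM in controls, 466 to 1043 in C26 vehicle and 277 to 718 in C26 rolipram, and their part in the fall of Acsl1 was not tested. Over 9.91% of its exonic length Acsl1 lies under Gm45244 on the opposite strand.

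Other genes of activation and carnitine transfer numbered 15, of which 14 were tested. Of these, 6 were higher and 2 lower under vehicle, beside 43.3% and 23.8% of all genes. Acacb, which makes the malonyl-CoA that inhibits entry into mitochondria, rose by 1.27 (from 42.7 to 105 RPKM, adjusted p = 5.92e-07), and Acot1, a thioesterase that undoes activation, by 1.85 (from 0.885 to 6.35 RPKM, adjusted p = 8.58e-07). Acot13, another thioesterase, fell by 0.80 (from 91 to 51.8 RPKM, adjusted p = 1.02e-05) and stood at 91.1 RPKM with rolipram, 0.77 above vehicle (adjusted p = 0.00128). In this list 3 genes were higher with rolipram than with vehicle and 0 lower (0 also at an unadjusted p below 0.05, limma), Crat, the carnitine acetyltransferase, by 0.32 (180 against 144 RPKM, adjusted p = 0.0187) with no overlap. The call of Crat was lost after quantile normalisation (0.22, adjusted p = 0.0974), in the fit of both tumour groups alone (adjusted p = 0.0642) and without rolipram library 1 (0.28, adjusted p = 0.0648). Cpt1b, the muscle carnitine palmitoyltransferase at the mitochondrial surface, did not pass the filter: it was listed at means of 0.283, 0.313 and 0.523 RPKM. It shares 81.4% of its exonic sequence with Gm44502 on the same strand, so these values cannot be read as its level. Cpt1b was named after its values were seen.

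The 2 oxidation enzymes behaved unlike each other. Hadha, the large subunit of the trifunctional protein, held 101 to 163 RPKM in controls (median 116) and 87.1 to 136 in C26 vehicle (median 114). With rolipram the libraries held 131, 119, 107, 121 and 106. All 3 groups overlapped. The change was -0.15 under vehicle ([-0.39, 0.10], adjusted p = 0.269), 0.08 for rolipram against vehicle ([-0.19, 0.35], adjusted p = 0.701) and -0.07 for rolipram against controls ([-0.34, 0.20], adjusted p = 0.665). In 2 scalings it passed as lower under vehicle, median of ratios (-0.29, adjusted p = 0.0327) and quantile normalisation (-0.42, adjusted p = 0.0065). Hadhb, the small subunit encoded head to head with it, had means of 141, 119 and 122 RPKM, with a change under vehicle of -0.26 (adjusted p = 0.0863) that passed after median-of-ratios scaling (-0.40, adjusted p = 0.011), after quantile normalisation (-0.51, adjusted p = 0.0037) and without vehicle library 7 (-0.33, adjusted p = 0.026). The ratio of Hadha to Hadhb was 0.879 ± 0.0775 (n = 7), 0.949 ± 0.0718 (n = 7) and 0.966 ± 0.0973 (n = 5); Hadhb was named for this ratio after its values were seen.

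Eci2, an isomerase that moves double bonds so that unsaturated fatty acids can be oxidised, rose with little spread. It held 36.6 to 50.1 RPKM in controls (median 38.7) and 76.2 to 106 in C26 vehicle (median 81.5). The rolipram values were 99.1, 123, 75.2, 87.2 and 91.8 RPKM. Every tumour library was above every control. The rise was 1.06 under vehicle ([0.84, 1.29], SE 0.11, adjusted p = 5.21e-08) and 1.19 with rolipram against controls ([0.95, 1.44], adjusted p = 9.29e-08). Rolipram and vehicle libraries differed by 0.13 ([-0.11, 0.38], adjusted p = 0.467). Its paralog Eci1, named after its values were seen, fell by 0.50 under vehicle (from 98.5 to 70 RPKM, adjusted p = 0.0162).

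In a list of 15 further genes, those of mitochondrial beta-oxidation, 2 were higher and 7 lower under vehicle, with a median of -0.26. Of all genes 43.3% were higher and 23.8% lower, and their median was 0.15. Acadl, the long-chain acyl-CoA dehydrogenase, rose by 0.79 (from 202 to 349 RPKM, adjusted p = 1.18e-05), whereas Acaa2, the thiolase, fell by 1.26 (from 166 to 75.2, adjusted p = 0.000167) and Hadh, the short-chain hydroxyacyl-CoA dehydrogenase, by 0.54 (adjusted p = 0.000178). Between the tumour groups Etfdh, which passes the electrons of beta-oxidation to ubiquinone, was 0.47 higher with rolipram (96.8 against 68.8 RPKM, adjusted p = 0.0156), and 0 were lower (0 also at an unadjusted p below 0.05, limma). Etfdh did not pass without rolipram library 1 (0.39, adjusted p = 0.0582) or 2 (0.41, adjusted p = 0.0539), or in the fit of both tumour groups alone (adjusted p = 0.0602). Against controls 4 were higher and 4 lower with rolipram, Echs1, an enoyl-CoA hydratase, among the former (0.70, adjusted p = 0.000352). Of 10 peroxisomal genes, 2 were higher and 4 lower under vehicle, beside 43.3% and 23.8% of all genes. Abcd2, a peroxisomal transporter of very long-chain acyl-CoA, fell by 2.08 under vehicle (from 10.9 to 2.06 RPKM, adjusted p = 3.08e-08). Crot, the carnitine octanoyltransferase, fell by 0.83 under vehicle and was 0.59 higher with rolipram than with vehicle (adjusted p = 0.00434), at means of 17.6, 9.63 and 14.7 RPKM.

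Over all 5 lists of other fatty acid genes together, 66 genes of which 64 were tested, 18 were higher, 17 lower and 29 not called under C26 vehicle, with a median of -0.10 beside 0.15 for all genes. Rolipram against vehicle gave 7 higher, 2 lower and 55 not called (median 0.06, all genes -0.01), and rolipram against controls 20 higher, 10 lower and 34 not called (median 0.08, all genes 0.15). Of all genes, 43.3% were called higher and 23.8% lower under vehicle. With rolipram these shares were 9.78% and 7.32% against vehicle, and 38.5% and 16.4% against controls. The number lower in the 5 lists depended on scaling. It became 30 and 32 under vehicle, and 20 and 25 with rolipram against controls, after median-of-ratios scaling and quantile normalisation. Of 9 genes of fatty acid synthesis, 8 of them tested, 4 were lower under vehicle and 0 higher, with 1 higher at an unadjusted p below 0.05 (limma). Srebf1, the transcription factor that drives that pathway, fell by 1.06 (from 15.9 to 7.08 RPKM, adjusted p = 1.19e-07), and Fasn, the synthase, by 0.93 (from 4.26 to 1.7 RPKM, adjusted p = 0.00135).

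**Figure D4:**
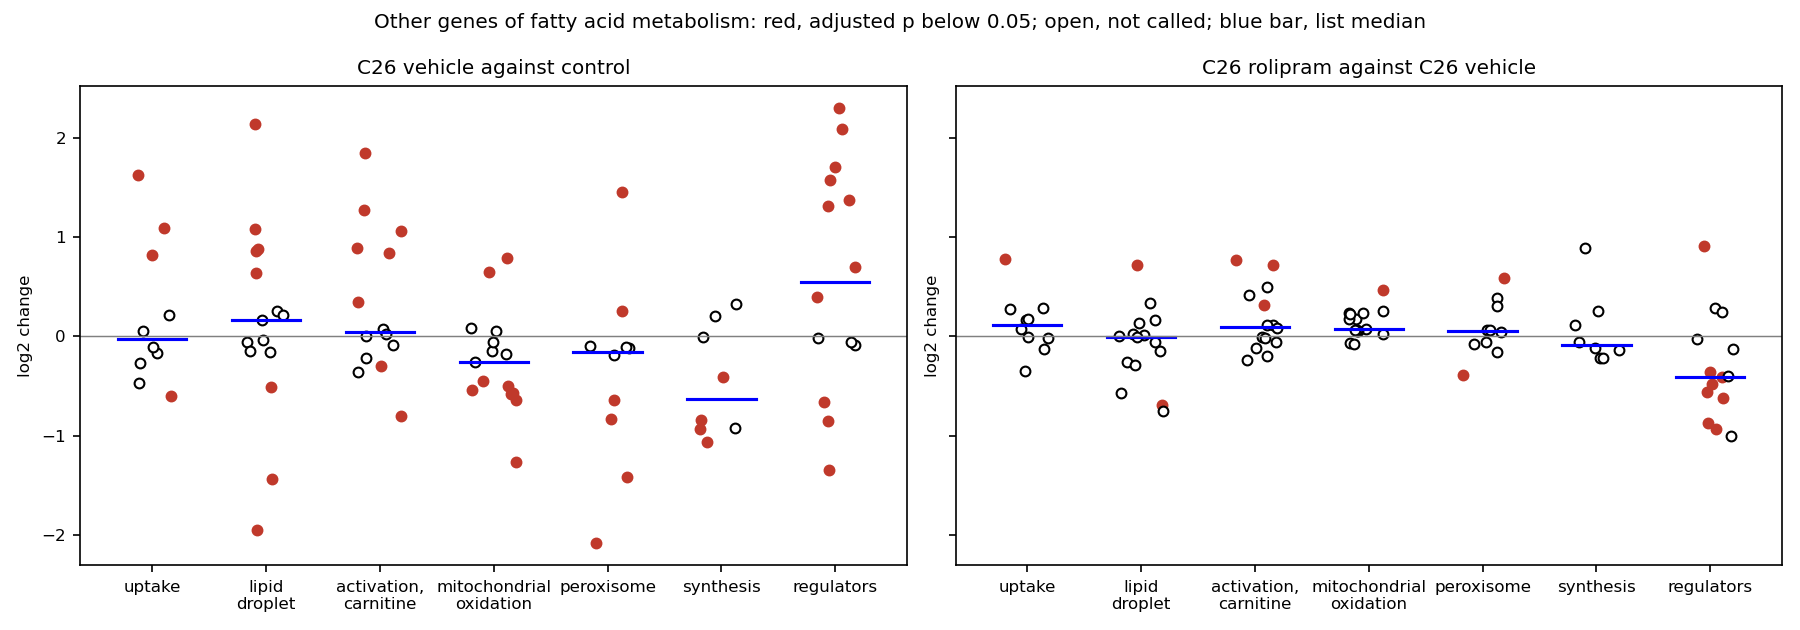
Log2 change of the other fatty acid genes by list, in the vehicle group relative to controls (left) and in the rolipram group relative to the vehicle group (right); red points passed an adjusted p of 0.05, open points did not and blue bars are list medians. The regulators have a median of 0.55 under vehicle and -0.41 with rolipram against vehicle.

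Ucp3, the mitochondrial carrier of muscle, varied widely within groups. Controls held 42.9 to 104 RPKM (median 85.8) and C26 vehicle libraries 72.3 to 181 (median 114). Rolipram libraries had 61.7, 112, 111, 139 and 8.98. Rolipram library 5, at 8.98, was the lowest of all 19, and the groups overlapped. The change was 0.60 under vehicle ([-0.29, 1.49], adjusted p = 0.218), and it passed when controls and vehicle libraries were fitted alone (0.60, adjusted p = 0.0367). Rolipram against vehicle gave -0.81 ([-1.78, 0.17], adjusted p = 0.241) and rolipram against controls -0.21 ([-1.18, 0.77], adjusted p = 0.729). Ucp2, a related carrier, was higher than in controls (6.01 RPKM) in both tumour groups, by 1.57 under vehicle (19.8 RPKM, adjusted p = 1.83e-06) and by 1.44 with rolipram (17.4 RPKM, adjusted p = 2.74e-05).

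The regulator list held transcription factors and cofactors of fatty acid genes together with metabolic genes such as the kinase Pdk4 and the carrier Ucp2. Under C26 vehicle 8 of its 14 tested genes were higher and 3 lower, beside 43.3% and 23.8% of all genes. Foxo3, a factor activated in fasting and atrophy, rose by 1.31 (from 3.47 to 10.3 RPKM, adjusted p = 9.23e-08), and Lpin1, a coactivator and phosphatidate phosphatase, by 1.70 (from 41.9 to 139, adjusted p = 7.39e-09). Esrra, an orphan receptor that drives oxidative genes, fell by 1.34 (adjusted p = 1.25e-06). With rolipram against vehicle 1 of the 14 was higher and 7 were lower, where 7.32% of all genes were lower. Esrra was 0.91 higher (41.5 ± 15.3, n = 5, against 20.8 ± 4.24 RPKM, n = 7, adjusted p = 0.00373), with no overlap. Rxra, the partner of the PPAR receptors, was -0.41 lower (32.1 against 42.9 RPKM, adjusted p = 0.0118), and Foxo3 was -0.56 lower (6.46 against 10.3 RPKM, adjusted p = 0.016).

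The other 5 that were lower are named to complete the count, after their values were seen: Foxo1 (-0.87, adjusted p = 0.0263), Ppara (-0.62, 0.0323), Klf15 (-0.93, 0.0454), Ppard (-0.36, 0.0467) and Lpin1 (-0.48, 0.0484). All 7 had libraries that overlapped between the groups. The count of 7 became 0 when only the 2 tumour groups were fitted, with adjusted p of 0.0528 for Foxo1, 0.0559 for Foxo3 and 0.0578 for Rxra. It became 4 with no filter on low values and 4 after median-of-ratios scaling. Without vehicle library 3, 4, 5 or 6 it was 2, 3, 2 and 4, and without rolipram library 1 or 2 it was 2 and 1. Without rolipram library 3, Klf15, Ppara and Ppard lost their calls (adjusted p = 0.0738, 0.0505 and 0.0738). Without rolipram library 4, Foxo1, Klf15 and Ppard did (0.059, 0.118 and 0.123). Esrrg, not among these 7, passed as lower in both runs (-0.46 and -0.49, adjusted p = 0.0455 and 0.0457). The call of Esrra was kept under every alternative run. Pdk4, a kinase that turns muscle from glucose to fatty acids and that was named after its values were seen, had means of 254, 1235 and 740 RPKM in the control, vehicle and rolipram groups. It rose by 2.30 under vehicle (adjusted p = 3.30e-05), and the interval of its difference between the tumour groups ran from -1.89 to -0.11 (adjusted p = 0.112).

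**Figure D5:**
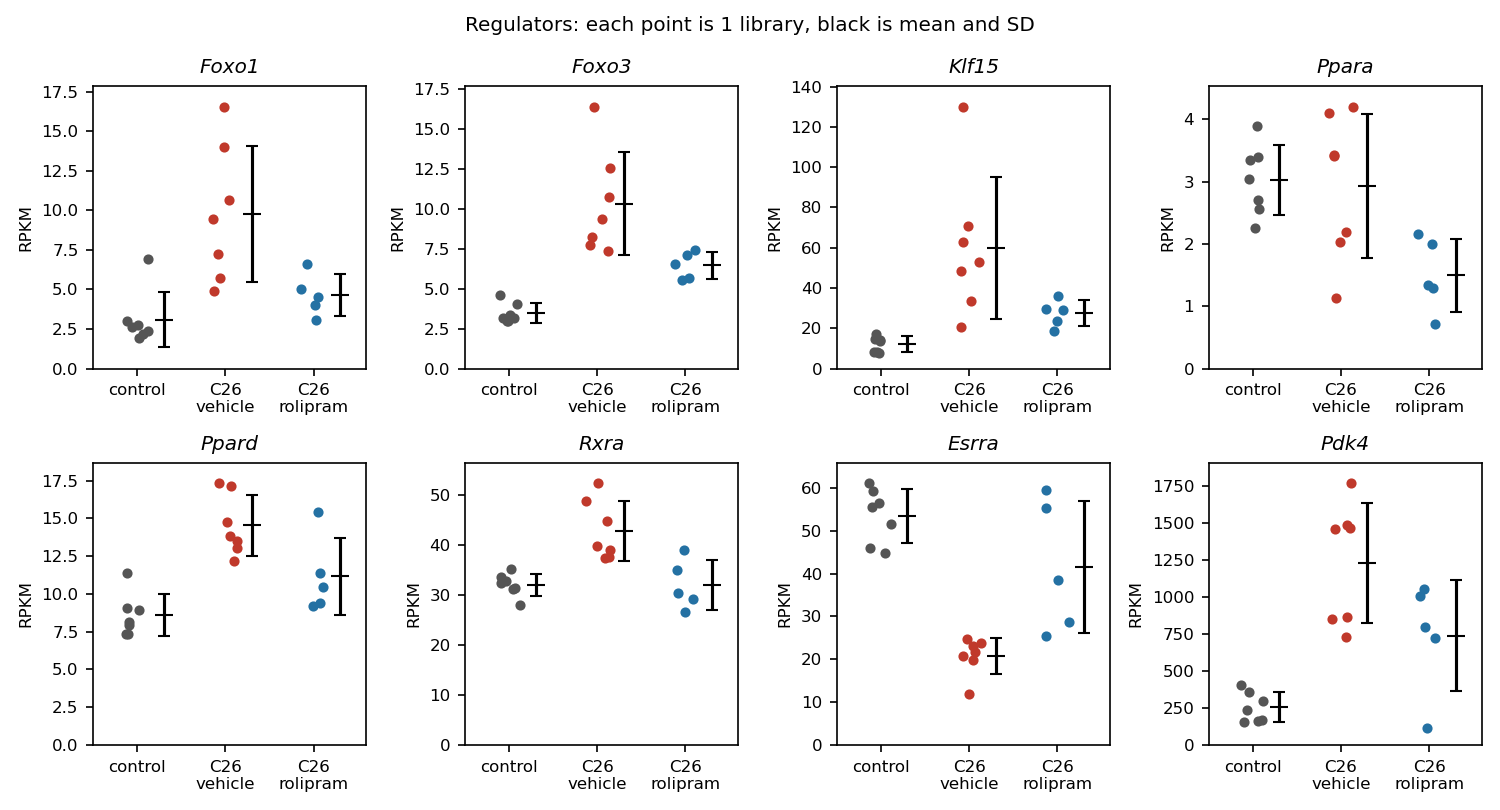
RPKM of 8 regulators by group; each point is 1 library, and the black mark and bar give the mean and SD. Esrra lies below all controls in every C26 vehicle library and above all of these in every C26 rolipram library; Klf15, Foxo3 and Pdk4 are raised under vehicle.

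Within groups, the 10 genes varied together in part. After subtraction of the group means, Pearson's r over the 19 libraries was 0.90 for Acsl1 and Hadha, 0.84 for Angptl4 and Lipe, 0.84 for Pnpla2 and Eci2, and 0.83 for Fabp3 and Hadha. Lpl had its lowest values with Ucp3 (-0.56), Angptl4 (-0.44) and Fabp3 (-0.35), and its highest with Pnpla2 (0.14). Apart from each other, Pnpla2 and Eci2 also ran with few of the rest, at -0.21 to 0.16 and -0.05 to 0.31. These values describe libraries that share depth and tissue composition, and they carry no test. Controls 6 and 7 were the highest controls for every one of the 10 genes except Ucp3.

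Outside the 10, the genes most like each of them by the same measure over the 19 libraries were as follows. Hadha ran closest with Eci1 (0.95) and Ech1 (0.94), both of the same pathway, Acsl1 with Hsdl2 (0.93) and Hadhb (0.93), and Ucp3 with Slc25a42 (0.91) and Pdk4 (0.90). Lipe ran closest with Pck1 (0.94) and Tpd52l1 (0.93), Angptl4 with Pxmp4 (0.93) and Cpt2 (0.91), and Pnpla2 with Dhps (0.94) and Mrpl38 (0.93). Lpl ran closest with Cobll1 (0.92) and Uvssa (0.92), Fabp3 with Rab15 (0.92) and Wrap53 (0.88), Cd36 with Palmd (0.88) and Fscn1 (0.87), and Eci2 with Ngdn (0.88) and Rps12 (0.88).

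By position in GRCm38 (GENCODE M21), Pnpla2 lies at chr7:141455198-141460743, Lipe at chr7:25379527-25398710 and Ucp3 at chr7:100472990-100486432. Lpl lies at chr8:68880491-68907448 and Acsl1 at chr8:46471037-46536051. Cd36 lies at chr5:17781690-17888801 and Hadha at chr5:30118304-30155162. Fabp3 lies at chr4:130308595-130315463, Angptl4 at chr17:33773750-33781830 and Eci2 at chr13:34977748-35027096. All 10 are annotated as protein coding.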

How the data were processed

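RPKM values computed by the authors and deposited as 1 table of 13067 genes in 19 libraries were used as they stand. The authors aligned reads to mm10 with STAR 2.5.3a and counted them with featureCounts 1.6.4, per the submitters' processing notes; per the labels' protocols, libraries were stranded and polyA-selected. The annotation release, the strand setting and the tool that made the RPKM values are not given in the sources used here. No value was 0.

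Library sizes of 16.6 to 45.5 M reads were estimated from the spacing of low values in 40 genes. The spacing was chosen so that these values came closest to whole reads. That 100% of them were whole within 0.05 read is therefore no separate check. The absolute sizes also rest on an assumed fraction of a read at the lowest value of a gene. Library sizes set the precision of scarce genes: Angptl4 rested on an estimated 24 to 1224 reads a library.

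Values were analysed as log2(RPKM + 1), which understates changes of low genes. The 11141 genes that reached 1 RPKM in 5 or more libraries entered 1 limma model of the 3 groups (limma 3.58.1, R 4.3.3; trend and robust moderation, two-sided), with Benjamini-Hochberg adjustment and a threshold of 0.05. The scripts were tested on simulated data. No count model was fitted to RPKM.

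The 10 genes and the other lists were chosen with earlier results of these data known. Besides the 10, each list names, per comparison, from the direction that most called genes took the 2 with the smallest p, and from the opposite direction 1, not all of which are printed (1 such gene is not reported here); the text says where a gene was added after its values were seen. Alternatives were another pseudocount, no filter, median-of-ratios scaling, quantile normalisation, fits of 2 groups only, plain moderation, the sample number as a block, and each library left out. Exons, overlaps and positions came from GENCODE M21 and promoters from RefSeq.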

Additional observations from a re-analysis of the deposited data

How the results depend on the processing

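Of 590 values for the 10 genes under the alternatives, 559 stayed on their side of the threshold with their direction, 13 lost a call, 18 gained one and 0 reversed. For other genes that the naming rule chose or that were added, alternatives chosen after the data were seen gave 3245 values, of which 3102 stayed, 109 lost a call, 34 gained one and 0 reversed. The cause of the changes below was not tested.

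For C26 vehicle against control, the count of lower genes among the 10 went from 1 to 3 under median-of-ratios scaling and 3 under quantile normalisation (1 to 2 with a library left out), and that of the 64 other genes from 17 to 30 and 32. For C26 rolipram against C26 vehicle, higher genes went from 0 to 1 with the replicate block (Acsl1, 0.66, adjusted p = 0.00515; 0 to 1 with a library left out; Lipe against controls also passed under vehicle, 0.45, adjusted p = 0.0249, as did Hadhb, -0.26, adjusted p = 0.0299) and lower genes from 1 to 2 under quantile normalisation. In the other list 7 higher and 2 lower became 4 and 1 in the fit over both groups alone, and 4 to 10 and 0 to 3 with a library left out, with 4 without rolipram 1 and 0 without rolipram 2; vehicle 4, 5 or 6 and rolipram 1 or 4 each left 1 lower. All genes called there fell from 1906 to 767 in that fit. The 7 lower regulators became 4 without the filter, 4 under median-of-ratios scaling, 0 in that fit, and 1 to 7 with a library left out. For C26 rolipram against control, higher genes among the 10 went from 3 to 5 with the replicate block (Angptl4, 1.29, and Lipe, 0.54), lower genes from 1 to 2 under quantile normalisation and to 0 without rolipram 3 or 5, and lower genes of the other list from 10 to 20 and 25 under the scalings.

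The sample numbers were not treated as pairs, because no label says that they mark a litter, batch or day. Over 17 same-numbered pairs, the correlation of deviations from group means was -0.36 to 0.39 (median 0.01), with 5 above 0.1. Control and vehicle libraries numbered 4, 5, 6 and 7 stood at 0.30, 0.21, 0.15 and 0.20. Differently numbered libraries were not compared, so these values do not settle whether the numbers mark pairs.

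With 5 rolipram libraries, intervals of Ucp3 and Angptl4 span changes above 1 on the log2 scale, and reads of overlapping genes cannot be assigned.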
